A study of Mus musculus with 14 samples.

Results

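The regions described here carried a C/EBPβ peak in mesoderm cells (MES) and in no later population of the same differentiation series. They were chosen by their presence and absence in 5 deposited lists of C/EBPβ peaks, 1 for MES and 1 for each later stage. These are the hemangioblast (HB), a precursor of blood and vessels, the hemogenic endothelium (HE), the vessel lining from which blood cells emerge, hematopoietic progenitors (HP), and their macrophage progeny (MAC). Peaks of the 5 lists that overlapped by at least 1 bp were merged into 56276 regions, and 377 of these held a MES peak and no other. They made up 32.0% of the 1177 MES C/EBPβ regions, and the other 800 MES regions, found again at 1 or more of the later stages, served for comparison throughout. All cells derived from a mouse embryonic stem (ES) cell line of strain 129 that carries a GFP reporter in the Brachyury gene, and were obtained by differentiation in culture, without any further treatment given in the labels. MES cells were sorted as GFP-positive and Flk1-negative, HB cells as GFP-positive and Flk1-positive, HE cells as Tie2-positive, cKit-positive and CD41-negative, HP cells as CD41-positive and MAC cells as CD11b-positive. A single ES cell line underlies every stage, and the lists hold no RNA against which the labelled cell types could be checked. Each list is 1 sample, and the variation between replicate experiments is therefore unknown.

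C/EBPβ is a basic leucine zipper protein that binds DNA as a dimer, either with itself, with another C/EBP protein or with members of the ATF family. Its preferred site is a palindrome, or nearly one, in which TTGC is followed by its reverse complement GCAA or a sequence close to it. It is best known for its part in macrophage, liver and fat cell differentiation and in cellular stress responses, and mesoderm precedes the onset of blood gene expression.

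The sequences of the 10 mesoderm-only regions that stood nearest to the top of the MES list are shown because they are the mesoderm-only regions in the part of the list that carried the C/EBP consensus most often (below). They are not typical of the 377, since 5 of the 10 held the consensus against 41 of the 377. Each line gives 80 bases of the plus strand of GRCm38, 5′ to 3′, centred on the consensus or, where there was none, on the peak centre, with every match to TTGCGCAA, TTGCGTAA, TTGCACAA or TTGCATAA on either strand in capitals.
Asic1, row 151, chr15:99662651-99662730: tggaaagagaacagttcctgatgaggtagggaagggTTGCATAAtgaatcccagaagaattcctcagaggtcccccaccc
Asic1, row 187, chr15:99677341-99677420: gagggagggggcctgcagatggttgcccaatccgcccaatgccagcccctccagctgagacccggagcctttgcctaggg
Apeh, row 201, chr9:108138294-108138373: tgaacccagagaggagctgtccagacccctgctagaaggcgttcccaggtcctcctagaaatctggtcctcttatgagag
Med30, row 208, chr15:52967820-52967899: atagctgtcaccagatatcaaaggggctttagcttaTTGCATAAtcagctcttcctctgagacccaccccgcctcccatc
Crim1, row 222, chr17:77407099-77407178: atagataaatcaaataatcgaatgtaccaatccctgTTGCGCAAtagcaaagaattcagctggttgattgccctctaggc
Hprt, row 233, chrX:52962144-52962223: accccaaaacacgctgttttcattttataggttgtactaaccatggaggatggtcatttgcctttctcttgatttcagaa
Kdm4c, row 246, chr4:74685367-74685446: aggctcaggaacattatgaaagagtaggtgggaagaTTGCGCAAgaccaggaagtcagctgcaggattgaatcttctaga
Insyn2a, row 262, chr7:134937481-134937560: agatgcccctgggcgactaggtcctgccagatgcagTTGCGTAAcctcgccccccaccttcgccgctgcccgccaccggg
Srsf6, row 269, chr2:162922973-162923052: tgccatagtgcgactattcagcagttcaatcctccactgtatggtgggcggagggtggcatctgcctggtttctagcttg
Snx16, row 280, chr3:10477974-10478053: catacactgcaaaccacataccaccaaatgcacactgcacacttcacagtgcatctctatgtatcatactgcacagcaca
For comparison, the first and second peaks of the MES list, both found again at later stages, held the palindromic form of the consensus within 10 bp of the peak centre.
Cotl1, row 1, chr8:119840629-119840708: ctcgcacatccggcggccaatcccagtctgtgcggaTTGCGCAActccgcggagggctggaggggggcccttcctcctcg
Rad23b, row 2, chr4:55349743-55349822: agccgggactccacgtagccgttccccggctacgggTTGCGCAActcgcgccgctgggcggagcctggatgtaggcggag

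The gene before each line is the one whose coding transcription start site (TSS) lay nearest, and it is a label of position and not a target. The region at row 151 lay 7620 bp upstream of Asic1, an acid-sensing ion channel gene, and carried GATA and NFY sequences as well. The region at row 187 lay in an intron of the same gene, 14624 bp from the former, and carried none of the 19 consensus sequences searched. The region at row 201 lay in an exon of the noncoding transcript 4930447F24Rik within Bsn, a gene of the presynaptic active zone. The regions near Med30 (a Mediator subunit), Crim1 (a transmembrane protein that binds BMPs) and Kdm4c (a histone demethylase) were intergenic and lay 255419, 793127 and 433482 bp from those TSSs. The region near Hprt, the purine salvage enzyme, lay 25894 bp upstream of its TSS. The region at row 262 lay in an intron, 887 bp downstream of the TSS of Insyn2a, a gene that shares this stretch with Dock1, and was the only 1 of the 10 within 2 kb of a coding TSS. The regions near Srsf6 (a splicing factor) and Snx16 (a sorting nexin) were intergenic and lay 8495 and 37884 bp upstream.

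The C/EBP consensus itself was the sequence that most separated the mesoderm-only regions from the rest of the MES list. It occurred in 41 of 377 mesoderm-only regions, or 10.9% (exact 95% binomial interval, 7.92% to 14.5%), and in 468 of the 800 regions found again, or 58.5% (55.0% to 61.9%). The difference was -47.6 percentage points, and the odds of holding the consensus were 11.6 times lower in the mesoderm-only regions (two-sided Fisher's exact test, adjusted p = 7.07e-58). Without the MAC list, by far the longest of the 5, 145 of 566 regions counted as mesoderm-only held it, or 25.6%, against 364 of 611, or 59.6%, and the odds were 4.28 times lower (Fisher's exact test, adjusted p = 1.38e-31). This and the tests below compare regions of 1 library, not conditions, and the p-values are Benjamini-Hochberg values over all 24 tests made. In windows of 400 bp taken 2 kb to either side of the peaks, the consensus occurred in 26 of 754 windows, or 3.45% (2.26% to 5.01%), around mesoderm-only regions and in 35 of 1600, or 2.19% (1.53% to 3.03%), around the others. The intervals of the mesoderm-only regions and of the windows beside them did not overlap, and the gap between the 2 shares was much smaller than for the regions found again. A looser form of the site was also searched, in which several positions are free but the base after the site must be T or G. It therefore does not contain every match to the consensus. It occurred in 67.4% of the mesoderm-only regions, 87.9% of the regions found again and 62.3% of the windows beside mesoderm-only regions. In the mesoderm-only regions the looser form was thus about as frequent as in the sequence next to them (intervals 62.4% to 72.1% and 58.8% to 65.8%).

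The form of the consensus differed too. The 41 regions held 42 matches. The palindromic form TTGCGCAA made up 8 of these, or 19.0% (8.60% to 34.1%), against 253 of 487, or 52.0% (47.4% to 56.5%), in the regions found again. The form TTGCGTAA, which also contains a CpG, gave 4 of 42 matches in the mesoderm-only regions and 86 of 487 in the others. The first form without a CpG, TTGCACAA, gave 16 of 42 matches, or 38.1%, and the second, TTGCATAA, gave 14 of 42, or 33.3% (19.6% to 49.5%), while in the regions found again these were 23.8% and 6.57% (4.54% to 9.15%). Both CpG forms together were 28.6% (15.7% to 44.6%) of the matches in mesoderm-only regions and 69.6% (65.3% to 73.7%) of the matches in regions found again. In the windows beside the peaks, none of the 27 matches around mesoderm-only regions and none of the 35 around the others had a CpG. These shares were compared after the values had been seen and were given no test.

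**Figure D1:**
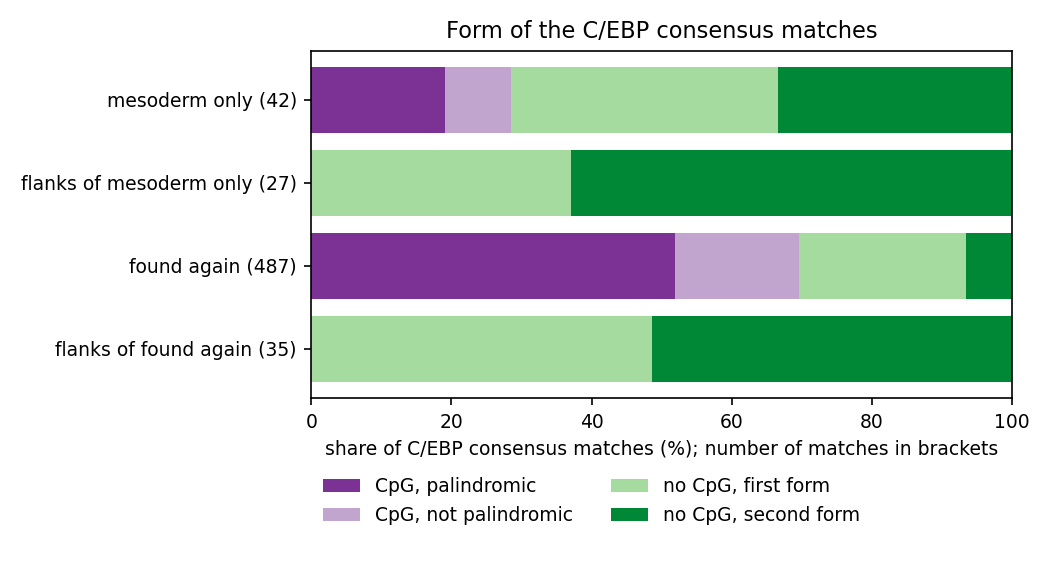
Share of C/EBP consensus matches (horizontal axis, %) that had each of 4 forms, in mesoderm-only regions, in regions found again and in the windows 2 kb to either side of each, with the number of matches in brackets. The CpG forms are TTGCGCAA (palindromic) and TTGCGTAA, and the forms without CpG are TTGCACAA (first) and TTGCATAA (second); CpG forms make up 28.6% of the 42 matches of mesoderm-only regions, none of those in either set of flanks and 69.6% of those in the regions found again.

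Matches with a CpG lay close to the peak centre in both groups. In the mesoderm-only regions their median distance from the centre was 20.0 bp, and 10 of 12 lay within 50 bp. Matches without a CpG had a median distance of 49.5 bp, and 15 of 30 lay within 50 bp, or 50.0% (31.3% to 68.7%). In the regions found again the medians were 11.0 bp and 17.0 bp, and 91.4% and 76.4% of the matches lay within 50 bp. Over all forms, 25 of 42 matches in mesoderm-only regions, or 59.5% (43.3% to 74.4%), and 423 of 487 in regions found again, or 86.9% (83.5% to 89.7%), lay within 50 bp of the centre.

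Further mesoderm-only regions with the consensus, named because they lay at a promoter, shared their nearest gene with another such region or overlapped a peak of another factor, show the range of positions and forms. Each line gives 30 bases of the plus strand of GRCm38 with the match in capitals.
Rbfox2, row 445, chr15:77244810-77244839: ttctttatgtcTTGCGCAAtgctccatcat
Sorcs1, row 1075, chr19:49811183-49811212: tatagaagagaTTGCGTAAgagagaccgcg
Adgrl2, row 380, chr3:149215983-149216012: caatacaaacaTTGCACAAgagatggccat
Tenm3, row 320, chr8:48492772-48492801: cacagatgcggTTGCACAActcaatctgct
Trim71, row 817, chr9:114576070-114576099: taatgagccccTTGCACAAccatacctggg
Nfasc, row 285, chr1:132800606-132800635: cccctgcttccTTGTGCAAacctcaggcct
The matches near Rbfox2, Sorcs1 and Adgrl2 lay 7, 2 and 4 bp from the peak centre, the match near Tenm3 lay 36 bp from it, and the matches near Trim71 and Nfasc lay 113 bp before it and 151 bp after it. A single mesoderm-only region held 2 matches, while among those found again 15 held 2 and 2 held 3. It lay in an intron of Gm8439 on chromosome 4 (row 901), with matches 185 and 15 bp before the centre, of which the outer one is shown here because it overlaps an octamer sequence, ATGCAAAT.
Gm8439, row 901, chr4:120599013-120599092: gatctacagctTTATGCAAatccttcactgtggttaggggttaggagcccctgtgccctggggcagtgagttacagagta

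Mesoderm-only regions were concentrated in the lower rows of the MES list. The files give no score, and the sources do not say how the rows were ordered, but the rows do not follow coordinates, and row numbers of MES peaks rose with those of the overlapping peaks in the HB list (Spearman's rho 0.48 over 374 peaks), the HP list (0.46 over 560) and the MAC list (0.31 over 781), which is given as a description. None of the first 100 rows was mesoderm-only, and 2 of rows 101 to 200 and 9 of rows 201 to 300 were. The number then rose to 47 of rows 701 to 800, 61 of rows 901 to 1000 and 52 of the last 77 rows. Rows 1 to 588 held 76 of the 377 regions, or 20.2% (16.2% to 24.6%), and 512 of the 800 regions found again, or 64.0% (60.6% to 67.3%), a difference of -43.8 percentage points (two-sided Fisher's exact test, adjusted p = 9.37e-46). The median row was 872 for mesoderm-only regions and 433.5 for the others.

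**Figure D2:**
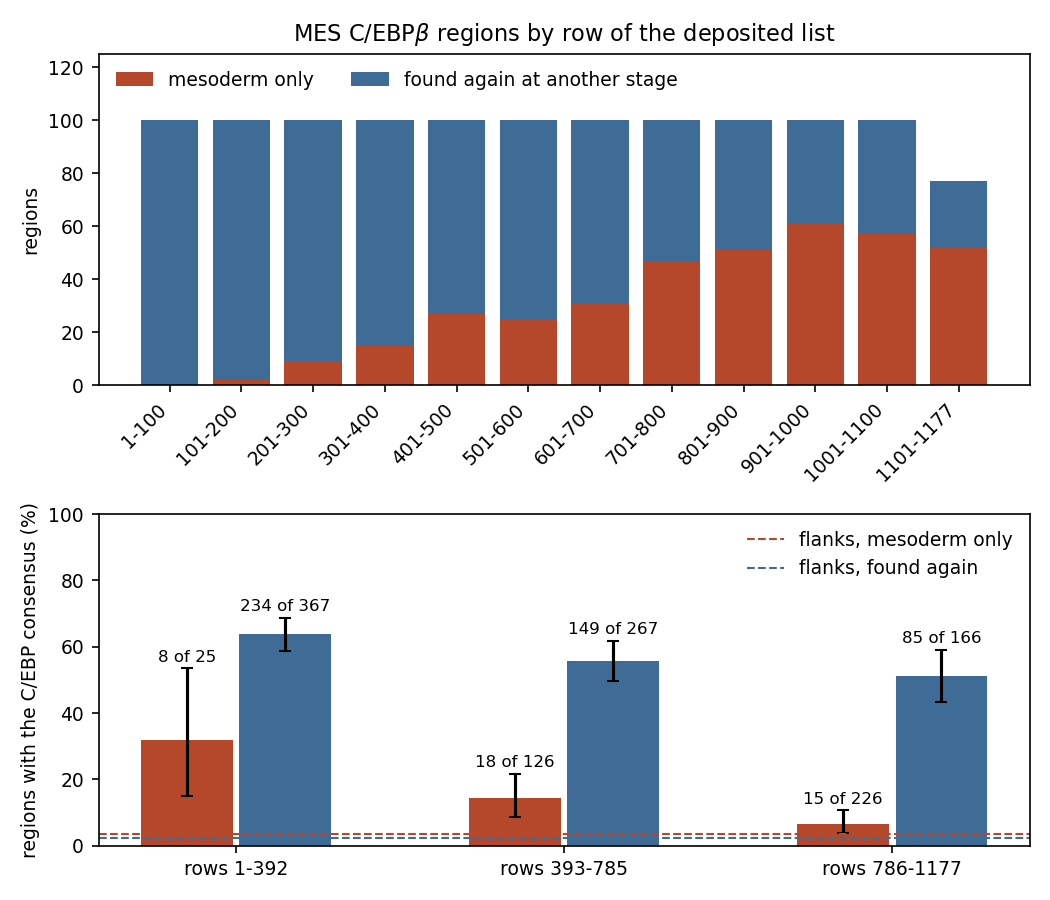
Upper plot: number of MES C/EBPβ regions (vertical axis) in successive blocks of 100 rows of the MES list (horizontal axis; the last block has 77 rows), split into mesoderm-only regions and regions found again. Lower plot: share of regions with the C/EBP consensus (vertical axis, %) in each of 3 blocks of rows, with exact 95% binomial intervals and the share in the windows beside the peaks as dashed lines; mesoderm-only regions lie lower in each block, with 8 of 25, 18 of 126 and 15 of 226 regions.

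Because both the consensus and the regions found again were more frequent in the upper rows, shares were also taken within 3 successive blocks of rows, a comparison added after the data had been seen. In rows 1 to 392 the consensus occurred in 8 of 25 mesoderm-only regions, or 32.0% (14.9% to 53.5%), and in 234 of 367 others, or 63.8%. In rows 393 to 785 it occurred in 18 of 126, or 14.3% (8.69% to 21.6%), and in 149 of 267, or 55.8%. In rows 786 to 1177 it occurred in 15 of 226, or 6.64% (3.76% to 10.7%), and in 85 of 166, or 51.2% (43.3% to 59.0%). The difference in that last block was -44.6 percentage points (two-sided Fisher's exact test, adjusted p = 1.13e-22), close to that over the whole list. The interval of the mesoderm-only regions in the last block overlapped that of the windows beside these same regions, 15 of 452, or 3.32% (1.87% to 5.41%). The 41 mesoderm-only regions with the consensus had a median row of 634, and the 336 without it had a median row of 887.5.

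Mesoderm-only regions lay at promoters less often than the regions found again. The share for positions taken at random from the genome was not computed, so a lack of promoters against the genome is not shown. Only 11 of 377, or 2.92% (1.47% to 5.16%), had a coding TSS within 2 kb of the peak centre, against 313 of 800, or 39.1% (35.7% to 42.6%), of the regions found again. The difference was -36.2 percentage points (two-sided Fisher's exact test, adjusted p = 4.65e-47). Without the MAC list the shares were 52 of 566, or 9.19%, and 272 of 611, or 44.5% (difference -35.3 percentage points). Within 100 bp of a coding TSS lay 1 mesoderm-only region and 110 of the others. The median distance was 51254 bp for mesoderm-only regions and 8716.5 bp for the others. By the RefSeq annotation at the peak centre, 198 mesoderm-only regions (52.5%) were intronic, 155 (41.1%) intergenic, 12 in coding exons, 7 in untranslated regions and 5 in noncoding exons. Of the regions found again, 37.8% were intronic, 39.9% intergenic and 13.6% in untranslated regions. In rows 786 to 1177, 2 of 226 mesoderm-only regions and 47 of 166 others were within 2 kb of a TSS (difference -27.4 percentage points, adjusted p = 2.31e-16 by Fisher's exact test).

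**Figure D3:**
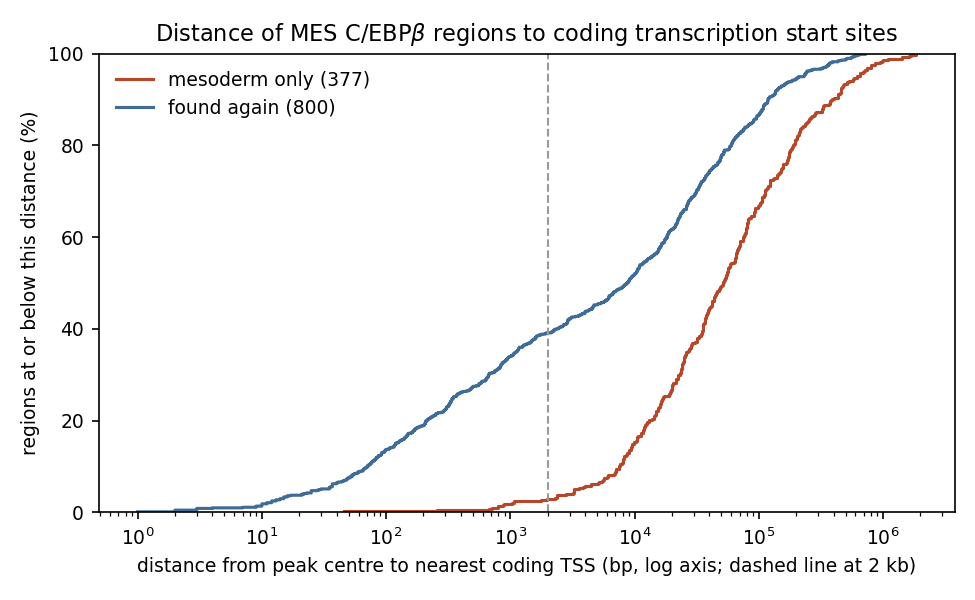
Cumulative share of regions (vertical axis, %) whose peak centre lay at or below a given distance from the nearest coding TSS (horizontal axis, bp, log scale; the dashed line marks 2 kb). At 2 kb the curve of the 377 mesoderm-only regions stands at 2.92% and that of the 800 regions found again at 39.1%, and the medians are 51254 and 8716.5 bp.

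The 11 promoter regions were spread over the list from row 262 to row 1125. The closest to a TSS lay 46 bp upstream of Alg1, which encodes a mannosyltransferase of N-glycan synthesis (chr16:5233375-5233774, row 392). It held TCF/LEF and YY1 sequences and no C/EBP consensus, and a MAC C/EBPβ peak lay 99 bp away. The region 259 bp upstream of Ascl5, a basic helix-loop-helix gene, held AP-1 and GFI1B sequences, and the nearest C/EBPβ peak of another stage was 41811 bp away. The C/EBP consensus occurred in 2 of the 11, near Insyn2a and near the splicing regulator Rbfox2, and the Rbfox2 region lay 113 bp from a MAC peak. The others lay near Ankib1, Hacd2, Kcnn1, Emx2 (a homeobox gene), Pla2g4f, Lpin2 (a phosphatidate phosphatase) and Slc41a1 (a magnesium transporter). Another mesoderm-only region lay in an intron of Lpin2, 25512 bp from the promoter region and 5553 bp downstream of another coding TSS of that gene.

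Base composition followed the same division. A region was called CpG-rich where its observed to expected CpG ratio was above 0.6 and its GC content above 50%, a property of many promoters. Of the mesoderm-only regions 2 were CpG-rich, or 0.531% (0.0643% to 1.90%), against 224 of 800, or 28.0% (24.9% to 31.3%), of the regions found again (difference -27.5 percentage points, Fisher's exact test, adjusted p = 5.85e-39). In windows beside the peaks, 0.796% and 2.81% were CpG-rich. Among regions more than 2 kb from a TSS, 1 of 366 and 32 of 487 were CpG-rich, a difference of -6.30 percentage points (Fisher's exact test, adjusted p = 1.76e-06). The 2 CpG-rich mesoderm-only regions were the Alg1 promoter region and a region on chromosome 17 described with the other factors below. Median GC content was 44.0% in mesoderm-only regions, ranging from 30.2% to 70.0%, and 50.8% in the others.

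Repeat-masked sequence made up more than 50% of the peak in 13 mesoderm-only regions, or 3.45% (1.85% to 5.82%), and in 4 of the regions found again, or 0.500% (0.136% to 1.28%), a difference of 2.95 percentage points (Fisher's exact test, adjusted p = 0.000672). Both shares were below those of the windows beside the peaks, 15.1% and 15.6%. Without the MAC list the shares were 16 of 566, or 2.83%, and 1 of 611, or 0.164% (Fisher's exact test, adjusted p = 0.000327). The odds ratio was then 17.7, against 7.11 with that list. In rows 786 to 1177 the shares were 9 of 226 and 3 of 166, and that difference, 2.18 percentage points, did not pass the threshold (Fisher's exact test, adjusted p = 0.570). The most heavily masked mesoderm-only region, 92.5% masked, lay nearest to Gm2237 on chromosome 14 (row 1009).

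Besides the C/EBP consensus, 18 consensus sequences of other factors were searched on both strands, and 7 differed between the groups. Over the whole list, sequences of the ATF and CREB class were less frequent in mesoderm-only regions. The composite C/EBP-ATF site TGATGCAA, the element through which C/EBP and ATF4 dimers bind stress response genes, occurred in 11 of 377, or 2.92%, against 7.75% (Fisher's exact test, adjusted p = 0.00320). The C/EBP-CRE hybrid TGACGCAA occurred in 3, or 0.796%, against 6.25% (Fisher's exact test, adjusted p = 1.33e-05), and the CRE itself, TGACGTCA, in 1, or 0.265%, against 2.12% (adjusted p = 0.0381). The hybrid also passed the threshold among regions more than 2 kb from a TSS, in rows 786 to 1177 and without the MAC list (Fisher's exact test, adjusted p = 0.0155, 0.0159 and 0.00737), whereas the C/EBP-ATF site (adjusted p = 0.102, 0.244 and 0.316) and the CRE (0.460, 0.151 and 0.0635) passed in none of these. The odds ratio of the hybrid was 0.120 over the whole list and 0.183, 0.126 and 0.410 in these 3 settings. That of the C/EBP-ATF site was 0.358 over the whole list and 0.456, 0.450 and 0.739. That of the CRE was 0.122 over the whole list and 0.264, 0 (0 of 226 against 4 of 166) and 0.304. All of these were below 1. Without the MAC list the hybrid occurred in 15 of 566, or 2.65%, against 38 of 611, or 6.22%. The sequences CCGGAAGT, bound by ETS proteins, and GCGCATGC, bound by NRF1, occurred in none and in 1 of the mesoderm-only regions, against 35 of 800, or 4.38%, and 20 of 800, or 2.50% (Fisher's exact test, adjusted p = 6.21e-06 and 0.0111). Neither passed the threshold among regions more than 2 kb from a TSS (Fisher's exact test, adjusted p = 0.138 and 0.460) or in rows 786 to 1177 (adjusted p = 0.244 and 0.834). The ETS word then occurred in 0 of 366 against 6 of 487 distal regions and in 0 of 226 against 3 of 166, and the odds ratio of the NRF1 word was 0.220 and 0.364, so that the direction was kept in these smaller sets without passing the test. Without the MAC list both passed, with 2 of 566 against 33 of 611 for ETS and 2 of 566 against 19 of 611 for NRF1 (Fisher's exact test, adjusted p = 2.11e-07 and 0.000817). A count of 0 in 377 allows a share of up to 0.974% by the exact 95% interval, which covers counting error only.

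Sequences of TCF/LEF proteins, the nuclear partners of β-catenin in WNT signalling, and of TEAD proteins, the DNA-binding partners of YAP in the Hippo pathway, were more frequent in mesoderm-only regions. The TCF/LEF words CTTTGAA and CTTTGAT occurred in 65 of 377, or 17.2% (13.6% to 21.4%), against 90 of 800, or 11.2% (difference 5.99 percentage points, Fisher's exact test, adjusted p = 0.0133). The TEAD word GGAATGT occurred in 33, or 8.75% (6.10% to 12.1%), against 40, or 5.00% (difference 3.75 percentage points, Fisher's exact test, adjusted p = 0.0381). The windows beside mesoderm-only regions held them in 16.4% and 6.37%, both within the intervals of the regions themselves. The regions found again held TCF/LEF words in 11.2%, below the 14.1% of the windows beside them. Neither difference passed the threshold among regions more than 2 kb from a TSS, where TCF/LEF differed by 4.62 points (Fisher's exact test, adjusted p = 0.182) and TEAD by 2.86 points (adjusted p = 0.348), nor in rows 786 to 1177 where they differed by 6.86 and 3.27 points (adjusted p = 0.244 and 0.570). Without the MAC list TCF/LEF passed (6.28 points, Fisher's exact test, adjusted p = 0.00535) and TEAD did not (2.01 points, adjusted p = 0.275).

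For the other 11 sequences no difference was detected. T-box words, the sites of Brachyury and its relatives, occurred in 8 mesoderm-only regions, or 2.12% (0.920% to 4.14%), and in 1.50% of the others. GATA words occurred in 8.75% and 7.75%, RUNX words in 10.1% and 7.88%, FOX words in 7.69% and 6.12%, and AP-1 words in 9.28% and 9.62%. None of the 19 sequences was present in 138 mesoderm-only regions, or 36.6% (31.7% to 41.7%), and in 88, or 11.0% (8.92% to 13.4%), of the others.

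**Figure D4:**
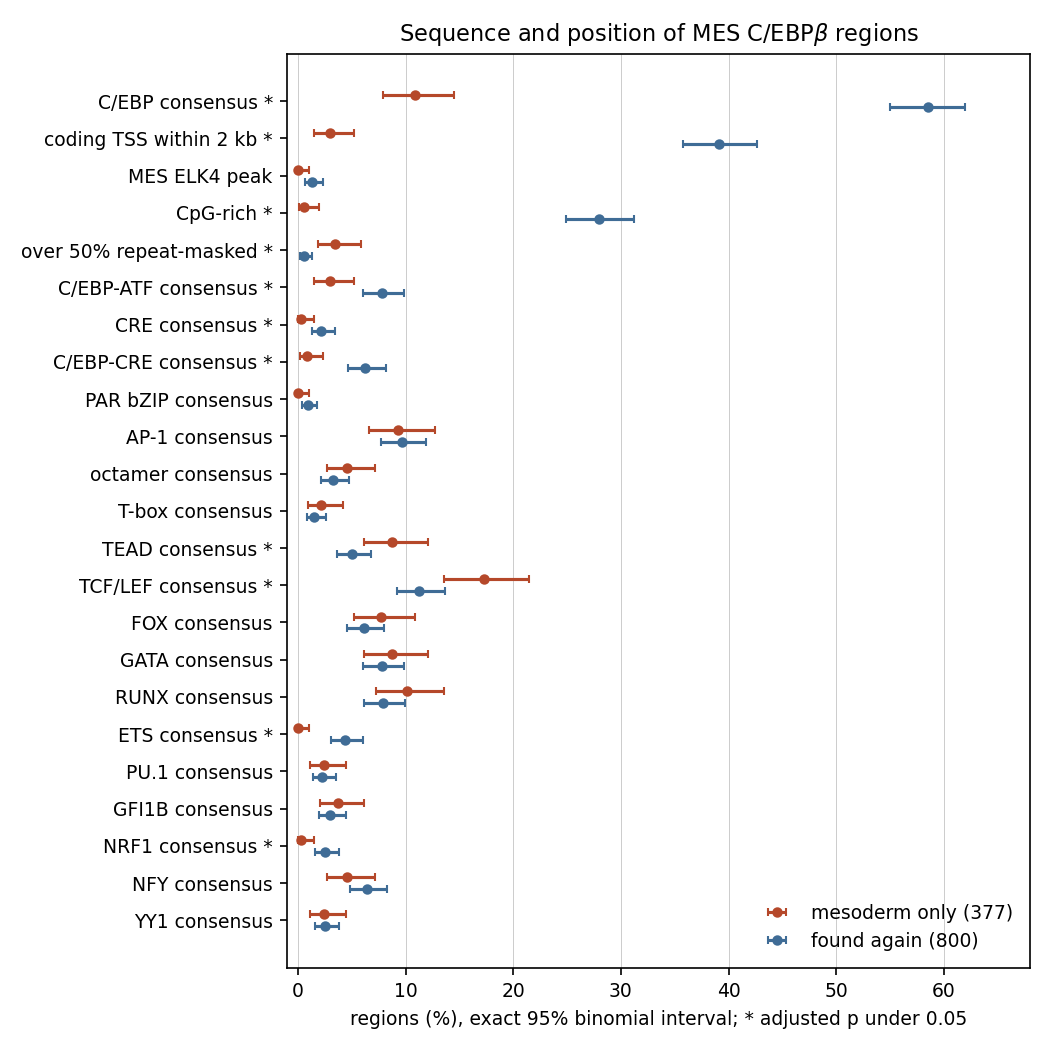
Share of regions (horizontal axis, %, with exact 95% binomial intervals) with each sequence or position, for the 377 mesoderm-only regions and the 800 MES regions found again; an asterisk marks an adjusted p under 0.05 by Fisher's exact test. The C/EBP consensus (10.9% against 58.5%), a coding TSS within 2 kb (2.92% against 39.1%) and CpG-rich sequence (0.531% against 28.0%) stand far apart, while TCF/LEF and TEAD are the sequences whose share is higher in mesoderm-only regions and passes the test.

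Mesoderm-only regions overlapped peaks of other factors less often than the regions found again did. The overlap of windows taken at random from the genome was not computed, so a lack of overlap against the genome is not shown. Of the 377, 10 overlapped a peak of any of the 9 lists of other factors, or 2.65% (1.28% to 4.82%), against 293 of 800, or 36.6% (33.3% to 40.1%), of the regions found again. Most of the latter overlaps were with PU.1 in MAC, in 278 of 800 regions, a list of 82866 peaks, against 7 of 377, or 1.86% (0.750% to 3.79%), of the mesoderm-only regions. Since the MAC and HP factors come from stages whose C/EBPβ lists entered the choice of regions, these shares were given no test. Among the 8 regions found again in HB or HE only, none overlapped another factor. Of those found again in HP or MAC only, 30.8% did, and of those found again in both periods, 44.1%. ELK4, an ETS factor, gave the only other list from MES cells among the 14 lists used here. It had 524 peaks, of which none overlapped a mesoderm-only region and 10 overlapped regions found again, or 1.25%, a difference of -1.25 percentage points that did not pass the threshold (two-sided Fisher's exact test, unadjusted p = 0.0359, adjusted p = 0.0662). Without the MAC list the same 10 overlaps stood at 0 of 566 against 10 of 611, or 1.64%, and that difference, -1.64 percentage points, passed it (Fisher's exact test, adjusted p = 0.00535).

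The mesoderm-only region in the most lists overlapped peaks of GATA2 and PU.1 in HP and of PU.1 in MAC (chr17:39845018-39845417, row 574). It was 70.0% GC with an observed to expected CpG ratio of 0.874, the highest GC content among the 377, and lay 105302 bp from the nearest coding TSS, that of Esp38. The nearest annotated gene of any kind was Rn18s-rs5, a pseudogene related to 18S ribosomal RNA, 936 bp away at chr17:39846354-39848202, and another MES peak at chr17:39844151-39844550 (row 520) was found again in HB, HP and MAC. A region in an intron of Fli1, an ETS gene of blood and endothelium, overlapped PU.1 in HP and MAC (chr9:32472236-32472635, row 649). It held PU.1 and RUNX words and no C/EBP consensus, and a MAC C/EBPβ peak lay 1383 bp away. The other 8 overlapped a single list each. The 3 highest in the MES list lay near Asic1 with GFI1B in HP (row 151), near Hprt with GATA2 in HB (row 233) and near Ankib1 with PU.1 in MAC (row 430). The remaining 5, named after their values were seen, were with PU.1 in MAC near Fer1l6, Cox4i2, Lama4 and Cog6, and with GATA2 in HP near Trim71, a gene of embryonic stem and progenitor cells.

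The nearest coding genes of the 377 regions numbered 362, or 1.72% of the 21000 coding genes with a TSS, and those of the 800 regions found again numbered 761, or 3.62%. Of the 362 genes, 33 were also nearest to a region found again, which is 9.12% of the one set and 4.34% of the other. Genes of 9 lists chosen for mesoderm, stress and blood functions were then counted. Of the 214 listed genes 7 were nearest to a mesoderm-only region, or 3.27%, and 37 to a region found again, or 17.3%. Those 7 were in 3 of the lists. Of the 39 genes of the amino acid stress response, 10 were nearest to a region found again (Ddit3, Trib3, Chac1, Atf3, Slc7a11 and Gdf15 among them), as were 7 of the 23 aminoacyl-tRNA synthetase genes. None of either list was nearest to a mesoderm-only region, which for lists of this size is near the 1.72% of all coding genes. The immediate early, C/EBP family, circadian clock and pluripotency lists had no gene nearest to a mesoderm-only region either, with 22, 7, 15 and 26 genes listed.

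Of 30 mesoderm regulators, 1 was nearest to a mesoderm-only region, which at 3.33% stands beside 1.72% of all coding genes and rests on that gene alone. This was Evx1, a homeobox gene of the posterior primitive streak, 112751 bp away (chr6:52426049-52426448, row 919). Of 36 genes of WNT, FGF, TGFβ and Hippo signalling, 2 were nearest to a mesoderm-only region, Acvr2b and Fgfr2, or 5.56% beside 1.72% of all coding genes, and 8 to a region found again, or 22.2% beside 3.62%. The region near Acvr2b, an activin receptor gene, lay 11701 bp upstream of its TSS in a coding exon of Xylb (chr9:119390277-119390676, row 442). Fgfr2, which encodes an FGF receptor, was the nearest gene of 4 mesoderm-only regions and of no region found again, the most for any gene. They spanned 349294 bp on chromosome 7, at rows 477, 735, 743 and 958. The region at row 477 lay in an intron of Fgfr2 (chr7:130174652-130175051), that at row 743 lay 22470 bp upstream of the TSS (chr7:130289078-130289477), and those at rows 735 and 958 were intergenic, 131853 and 326824 bp from the TSS. None of the 4 held the C/EBP consensus, and their distances to the nearest C/EBPβ peak of another stage were 50197, 90094, 7255 and 84168 bp in order of rows 477, 735, 743 and 958.

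Of 27 blood and endothelial genes, 4 were nearest to a mesoderm-only region, or 14.8% beside 1.72% of all coding genes, and 4 others to a region found again, or 14.8% beside 3.62%. These are small counts of genes at long distances, and no test was made of them. The former were Fli1, already described, Meis1, Sox17 and Csf1r. The region near Meis1, a homeobox gene of blood progenitors, was intergenic and 122392 bp upstream (chr11:19141161-19141560, row 881). The region near Sox17, a gene of endoderm and hemogenic endothelium, lay 34980 bp upstream (chr1:4532134-4532533, row 1158). The region near Csf1r, the receptor of the macrophage growth factor M-CSF, lay 28221 bp upstream in an intron of the neighbouring Pdgfrb gene (chr18:61077151-61077550, row 862). None of the 10 regions nearest to a listed gene held the C/EBP consensus, which for so few regions is near the 10.9% of all mesoderm-only regions. All but the Acvr2b region were more than 20 kb from the TSS.

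Beyond Fgfr2, 12 genes were nearest to 2 mesoderm-only regions each, namely Adgrl2, Asic1, Csmd1, Dlg2, Grm8, Lpin2, Nfasc, Pmfbp1, Sfi1, Sorcs1, Tenm3 and Zfp703, and the other 349 genes to 1. Some pairs lay close together. The regions near Adgrl2, a latrophilin gene, lay 2478 bp apart, and those near Asic1, Grm8, Lpin2 and Sfi1 lay 14624, 19054, 25512 and 26911 bp apart. In all, 6 of 357 neighbouring pairs on a chromosome lay within 50 kb of each other. Regions near Tenm3, a teneurin gene, lay at very different distances from its TSS, 181939 and 1836493 bp.

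By chromosome, mesoderm-only regions were densest on chromosome 8. It held 47 of 377, or 12.5% (9.31% to 16.2%), at 0.363 regions per Mb, while it makes up 4.75% of the assembled chromosomes. The other autosomes had a median of 0.138 per Mb and a range from 0.0830 to 0.250, with chromosome 15 highest. The X chromosome had 2 regions, or 0.0117 per Mb, near Hprt and Efnb1, and the Y chromosome had none. Regions found again were also densest on chromosome 8 (65 of 800, or 8.12%, 0.502 per Mb), followed by chromosome 11 at 0.475 per Mb. The 47 regions were spread over all 13 windows of 10 Mb, with at most 6 in any, and 3 of them held the C/EBP consensus. The share of chromosome 8 was 9.52% in the whole MES C/EBPβ list and 9.35% in MES ELK4, the other list of the same stage. It varied between lists of other factors and stages, from 2.27% in HE C/EBPβ and 5.89% in MAC C/EBPβ to 10.1% in HB C/EBPβ, 14.4% in HP GATA1 and 16.5% in HB GATA2. The lowest and highest of these rest on 3 of 132 and 16 of 97 peaks. Without chromosome 8, the consensus, promoter and row differences were -48.2, -36.6 and -44.2 percentage points.

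**Figure D5:**
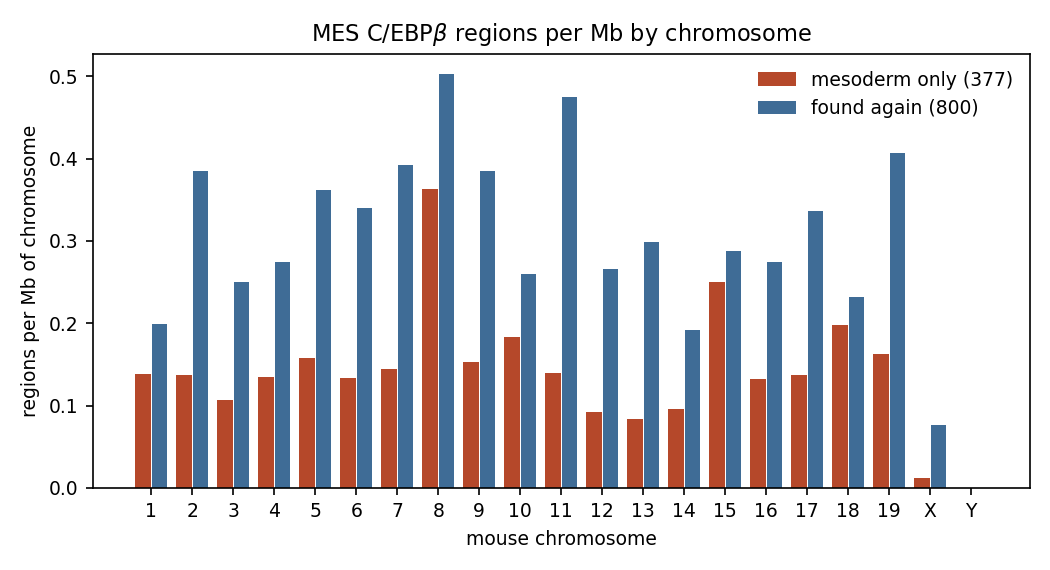
Regions per Mb of chromosome (vertical axis) for each mouse chromosome (horizontal axis), for the 377 mesoderm-only regions and the 800 MES regions found again. Chromosome 8 is highest for both, at 0.363 and 0.502 per Mb, and X is low for both, at 0.0117 and 0.0760 per Mb.

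Membership rested mainly on the MAC list. Of the 800 regions found again, 782 had a MAC peak, or 97.8%, 560 an HP peak, 374 an HB peak and 22 an HE peak. These lists held 55471, 2716, 715 and 132 peaks, and 189 MES regions were found again in MAC alone. Without the MAC list, 566 regions would be mesoderm-only, of which 23 were CpG-rich, or 4.06%, against 203 of 611, or 33.2%, of the others. Leaving out the HB, HE or HP list gave 385, 377 and 382. Each list holds peaks above a threshold set for that list, strictest for HE and least strict for MAC. A region counted as mesoderm-only thus had no called peak elsewhere, and reads at the later stages were not analysed here.

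At the edge of the rule, the 5 mesoderm-only regions nearest to a peak of another stage lay near Fer1l6, Hlx (a homeobox gene), Amz1, Crybg1 and Alg1, at 17, 28, 29, 32 and 99 bp from a MAC peak. On the other side, the 5 smallest overlaps were 6 bp near Rab3c, 41 bp near Nfil3, 88 and 94 bp near Hprt and 94 bp near Fam110a, all with an HP peak. The median distance from a mesoderm-only region to the nearest C/EBPβ peak of another stage was 16461 bp, and 28 of 377 lay within 1 kb and 144 within 10 kb. The Hprt locus held both kinds. Its mesoderm-only region at row 233 lay 161 bp from an HP peak, and its regions at rows 129 (chrX:52959924-52960323) and 338 (chrX:53001569-53001968) were found again in HP alone, 2 of the 4 MES regions with that pattern.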

How the data were processed

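The deposited files are lists of 400 bp peaks with chromosome, start and end, and no score or read count. The study's methods state that the authors trimmed reads with CutAdapt, aligned them to mm10 with Bowtie, kept unique positions, removed duplicates with Picard, called peaks with MACS against the input of each stage at a p-value threshold chosen by eye for each list, and refined them with polyPeak. Versions are not given in the sources used here. Among the C/EBPβ lists the stated threshold was strictest for HE, then HP, then MES and HB alike, and least strict for MAC. The study checked enrichment at target sequences by qPCR, but gives no target and no enrichment for MES and HB C/EBPβ. It states that enrichment was not always observed and that such samples were sequenced regardless, on the strength of the antibodies. Technical sequencing runs were merged for MES, HE and HP C/EBPβ, and HE chromatin was precipitated with carrier mRNA and histone. Sequencing depth was not used here, and list length does not measure the amount of binding.

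Peaks of the 5 C/EBPβ lists were merged by 1 bp overlap. Sequence, soft-masking and genes were those of RefSeq on GRCm38.p6, and the nearest coding TSS was taken over 25999 positions. Consensus words were matched exactly on both strands. Shares carry exact (Clopper-Pearson) 95% intervals, and were compared by two-sided Fisher's exact tests with Benjamini-Hochberg adjustment over 24 tests and a threshold of 0.05 (Python 3.11.15, NumPy 2.4.6, SciPy 1.17.1, Matplotlib 3.10.9, SAMtools 1.23.1). The adjustment was made separately for the main comparison and for each alternative. Scripts were tested on simulated data. Regions, gene lists and consensus words were chosen with earlier results of these data known. Regions named were the 10 highest in the MES list, the 5 in most lists of other factors, those nearest to a listed gene, those with 2 or more consensus matches, those within 100 bp of a TSS and genes nearest to 2 or more regions. The other promoter regions, the other regions that overlapped another factor, those at the edge of the rule and single extremes were named after their values were seen. Alternatives changed the overlap, the lists used, the promoter distance, the consensus and the regions compared.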

Additional observations from a re-analysis of the deposited data

How the results depend on the processing

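The number of mesoderm-only regions was 386 with 200 bp of overlap needed for a region found again, 349 when peaks within 1 kb also counted, 566 without the MAC list and 557 with that list reduced to its first 2716 rows, the length of the HP list. Differences in the C/EBP consensus, promoter, CpG-rich and row shares kept their direction and stayed past the threshold in all of the alternatives run for them, with ranges of -54.6 to -20.5, -39.6 to -27.4, -29.2 to -6.30 and -45.2 to -32.5 percentage points. The ELK4 difference lay between -1.13 and -0.411 points in the alternatives that kept the MAC list and passed the threshold in none of them, and was -1.64 points and past it without that list (Fisher's exact test, adjusted p = 0.00535). The repeat-masked difference in rows 786 to 1177 was 2.18 points and no longer passed (Fisher's exact test, adjusted p = 0.570, over its alternatives 0.000327 to 0.570). Of the other consensus sequences, 7 differed in the whole list, 5 when the MAC list was left out (4 of the 7, and NFY, which had not passed before), 1 among regions more than 2 kb from a TSS and 1 in rows 786 to 1177, where fewer regions were tested. The sequence that remained in both was the C/EBP-CRE hybrid. The nearest genes numbered 372 when any annotated transcript counted, and 244 coding genes held a region or lay within 10 kb of one. An overlap of 200 bp with another factor left 8 regions, or 2.12%. The analyses by blocks of rows, without chromosome 8 and of ELK4 without the MAC list were chosen after seeing the data. No paired analysis was possible because each group holds 1 list. With 1 list per stage and no scores, neither the variation between experiments nor the strength of binding at a region could be measured.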
